A study of Mus musculus with 8 samples.

Results

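The genes described here are 10 genes of fatty acid synthesis, taken from a deposited table of 43628 genes in quadriceps muscle by their symbols: Acly, Me1, Acaca, Acacb, Fasn, Elovl6, Scd1, Scd2, Srebf1 and Thrsp. They were chosen by measured values, because the mean FPKM of Fasn and Scd1 differed from wild type in opposite directions in 2 mouse models of muscular dystrophy, so differences of these genes between genotypes are given as descriptions, with no p-value. Counts of limma calls among them are printed beside the share of all tested genes, and nothing is read from them. All 10 were present and reached the expression minimum of 1 FPKM in at least 2 libraries that 12830 genes passed. FPKM counts sequenced fragments relative to transcript length and library size. Elovl6 reached the minimum through the dy2J libraries alone.

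RNA came from 40 male mice aged 8 weeks. The wild-type group (WT) was strain C57BL/10ScSnJ, with 14 mice in 3 pools. The mdx group, C57BL/10ScSn-Dmdmdx/J, carries a mutation of the dystrophin gene Dmd, models Duchenne muscular dystrophy and held 15 mice in 3 pools. The dy2J/dy2J group (dy2J), C57BL/6J Lama2dy-2J, carries a mutation of the laminin gene Lama2, models Lama2-related congenital muscular dystrophy and held 11 mice in 2 pools. Each pool joined the RNA of 4 to 6 mice (5 to 6 in dy2J) and gave 1 library. Spread between pools is therefore not spread between mice, and p-values measure the spread between pools. In bulk muscle, fewer cells of a type and less RNA per cell cannot be told apart. The dy2J mice differ from the other groups in background strain as well as in Lama2, and the effects of strain and mutation cannot be told apart.

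Fatty acid synthesis turns acetyl-CoA in the cytosol into palmitate and then into longer and unsaturated fatty acids. Acly makes acetyl-CoA from citrate, Me1 supplies NADPH, acetyl-CoA carboxylase (Acaca, Acacb) makes malonyl-CoA, Fasn builds palmitate, Elovl6 lengthens it and the stearoyl-CoA desaturases (Scd1, Scd2) place a double bond. Srebf1 encodes SREBP-1, a transcription factor that activates most of these genes in liver and fat, and Thrsp encodes Spot 14, a nuclear protein of lipogenic tissues. In muscle fibres, malonyl-CoA made by the Acacb enzyme at the mitochondrion limits the entry of fatty acids into oxidation, while synthesis of new fatty acids is mainly a task of liver, fat and mammary gland.

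Windows around annotated start sites were read as promoters for 8 of the 10 genes, with 11 start sites in all (RefSeq, GRCm38.p6). Scd1 and Scd2 were not matched. The 4 shown run 250 bases before to 50 bases after the start site, on the strand of the gene. Fasn and Elovl6 are shown as the genes with the highest ratio of mean FPKM in dy2J to WT, and Acacb and Srebf1 (the first of its 3 windows) as those with the lowest, so that windows from both ends of that order can be compared. Capitals mark matches, on either strand, to the NF-Y motif CCAAT or the GC box GGGCGG.
Fasn, chr11:120824498-120824797, minus strand: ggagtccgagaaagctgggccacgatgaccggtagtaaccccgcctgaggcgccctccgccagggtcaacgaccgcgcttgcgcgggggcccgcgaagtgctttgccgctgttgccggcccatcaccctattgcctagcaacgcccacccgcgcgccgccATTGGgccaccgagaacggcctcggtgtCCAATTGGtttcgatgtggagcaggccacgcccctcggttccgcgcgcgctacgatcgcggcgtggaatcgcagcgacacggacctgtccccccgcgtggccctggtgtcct
Elovl6, chr3:129532136-129532435, plus strand: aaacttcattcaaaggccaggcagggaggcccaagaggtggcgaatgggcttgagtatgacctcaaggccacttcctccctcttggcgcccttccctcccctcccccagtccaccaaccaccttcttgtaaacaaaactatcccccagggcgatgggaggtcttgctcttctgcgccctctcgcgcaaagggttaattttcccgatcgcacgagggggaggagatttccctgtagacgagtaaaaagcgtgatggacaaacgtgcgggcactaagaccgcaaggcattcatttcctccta
Acacb, chr5:114165268-114165567, plus strand: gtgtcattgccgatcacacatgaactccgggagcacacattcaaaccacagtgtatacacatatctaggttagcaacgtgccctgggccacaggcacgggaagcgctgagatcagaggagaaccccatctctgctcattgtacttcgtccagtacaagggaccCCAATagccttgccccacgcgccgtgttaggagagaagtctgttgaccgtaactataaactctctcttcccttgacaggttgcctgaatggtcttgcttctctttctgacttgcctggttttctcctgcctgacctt
Srebf1, chr11:60222532-60222831, minus strand: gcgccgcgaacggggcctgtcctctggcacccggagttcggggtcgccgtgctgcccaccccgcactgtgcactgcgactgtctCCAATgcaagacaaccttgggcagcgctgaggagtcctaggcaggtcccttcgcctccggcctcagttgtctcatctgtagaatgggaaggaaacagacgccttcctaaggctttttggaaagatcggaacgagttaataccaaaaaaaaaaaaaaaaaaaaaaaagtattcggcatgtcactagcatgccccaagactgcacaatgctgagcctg
CCAAT stood 3 times in the Fasn window, where 2 of the matches overlap, 1 time each in those of Acacb and Srebf1 and 0 times in that of Elovl6. The motif was thus present in windows of genes from both ends of the order and absent from that of a gene at its upper end. Of the windows not shown, those of Thrsp and Acly held 2 matches and 1, that of Acaca 0, the 2 of Me1 0 and 1, and the other Srebf1 windows 0 and 1. CCAAT was present in 7 of the 11 windows, and in 37.4% of 32851 mouse promoters of the same length. The GC box was present in 4 of the 11 windows, with 4 matches in that of Acly, 4 in the first and 0 in the second of Me1, and 3 and 2 in the Srebf1 windows not shown, and in 35.7% of all promoters. The windows of Acaca and Elovl6 held neither motif. The E-box CACGTG (7.15% of all promoters) and CACCCCAC, the core of a sterol element (2.87%), were in none of the 11 windows. Counted along the strand from the start of the deposited gene, the RefSeq start of Fasn lies at -369 bases, that of Acacb at 18983 and that of Acaca at 65766. That of the Srebf1 window shown lies at 0. The windows of Acacb and Acaca thus lie inside the deposited genes and need not be promoters. A match is a stretch of letters and not a binding site.

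Libraries matched their labels. Dmd, checked first, stood at 27.7 to 31.6 FPKM across the WT pools, 3.98 to 5.50 across the mdx pools and 22.8 and 28.1 in dy2J, and Lama2 at 9.34 to 9.43, 9.32 to 12.7 and 5.31 and 5.07. The muscle fibre markers Ckm and Tnnt3 lay high in every library, with lowest values of 5236 and 4745 FPKM. Read depth is unknown, and summed FPKM ran from 556218 in dy2J 1 to 785513 in dy2J 2. No fatty acid synthesis gene was listed at 0 in any library. Over all 12830 tested genes, limma called 3069 higher and 1645 lower in mdx than in WT, 1478 and 1160 in dy2J than in WT, and 356 and 469 in dy2J than in mdx. After rescaling by the median ratio those splits were 2609 and 2425, 1546 and 1386, and 586 and 404, and after quantile normalization 2187 and 2947, 1303 and 1658, and 695 and 480. Calls in dy2J against WT numbered 2638 in all, but 486 without dy2J 1, 1174 without dy2J 2, and 1603, 1576 and 1669 without WT 1, WT 2 and WT 3. In dy2J against mdx they numbered 825, but 144 without dy2J 1, 238 without dy2J 2 and 549 without WT 2. Without an expression minimum the split there was 276 higher and 234 lower.

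Fasn (ENSMUSG00000025153, chromosome 11, 120805940 to 120824178, GRCm38), the synthase itself, was listed at 8.36, 12.8 and 24.9 FPKM in the WT pools, 9.60, 10.3 and 8.91 in the mdx pools and 138 and 101 in the dy2J pools. Both dy2J pools lay far above all others, while the mdx pools lay inside the range of WT. Mean and SD were 15.4 ± 8.58 FPKM over 3 WT pools, 9.62 ± 0.721 over 3 mdx pools and 120 ± 26.6 over 2 dy2J pools, a ratio of 7.79 between dy2J and WT. On the scale of log2(FPKM + 1) the difference from WT was 2.99 ± 0.35 (SE) in dy2J and -0.50 ± 0.32 in mdx. The opposite direction of Fasn in mdx thus lay within the spread of the WT pools. Without WT 3 it was -0.10, and without WT 1 it was -0.83.

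Scd1 (ENSMUSG00000037071, chromosome 19, 44394451 to 44407709), the main delta-9 desaturase of fat and liver, showed 3 separate levels. It stood at 32.8, 59.5 and 83.1 FPKM in WT, 17.7, 15.6 and 23.3 in mdx and 141 and 134 in dy2J. No groups overlapped, and the mdx pools were lowest. The difference from WT was -1.50 ± 0.29 in mdx and 1.32 ± 0.33 in dy2J on the log2 scale. Its neighbour Scd2 (chromosome 19, 44293676 to 44306864), the desaturase most abundant in brain, did not share this pattern. Scd2 stood at 7.92, 6.56 and 8.58 FPKM in WT, 8.68, 11.7 and 13.1 in mdx and 10.0 and 9.38 in dy2J. All diseased pools were above the WT pools, by 0.48 ± 0.15 in mdx and 0.31 ± 0.17 in dy2J on the log2 scale, and mdx and dy2J overlapped. The ratio of Scd1 to Scd2 in FPKM was 7.63 ± 3.04 in WT, 1.72 ± 0.363 in mdx and 14.2 ± 0.178 in dy2J. Desaturase genes are alike in sequence, and the handling of reads they share is not stated. The related Scd3 and Scd4 did not reach the expression minimum.

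**Figure D1:**
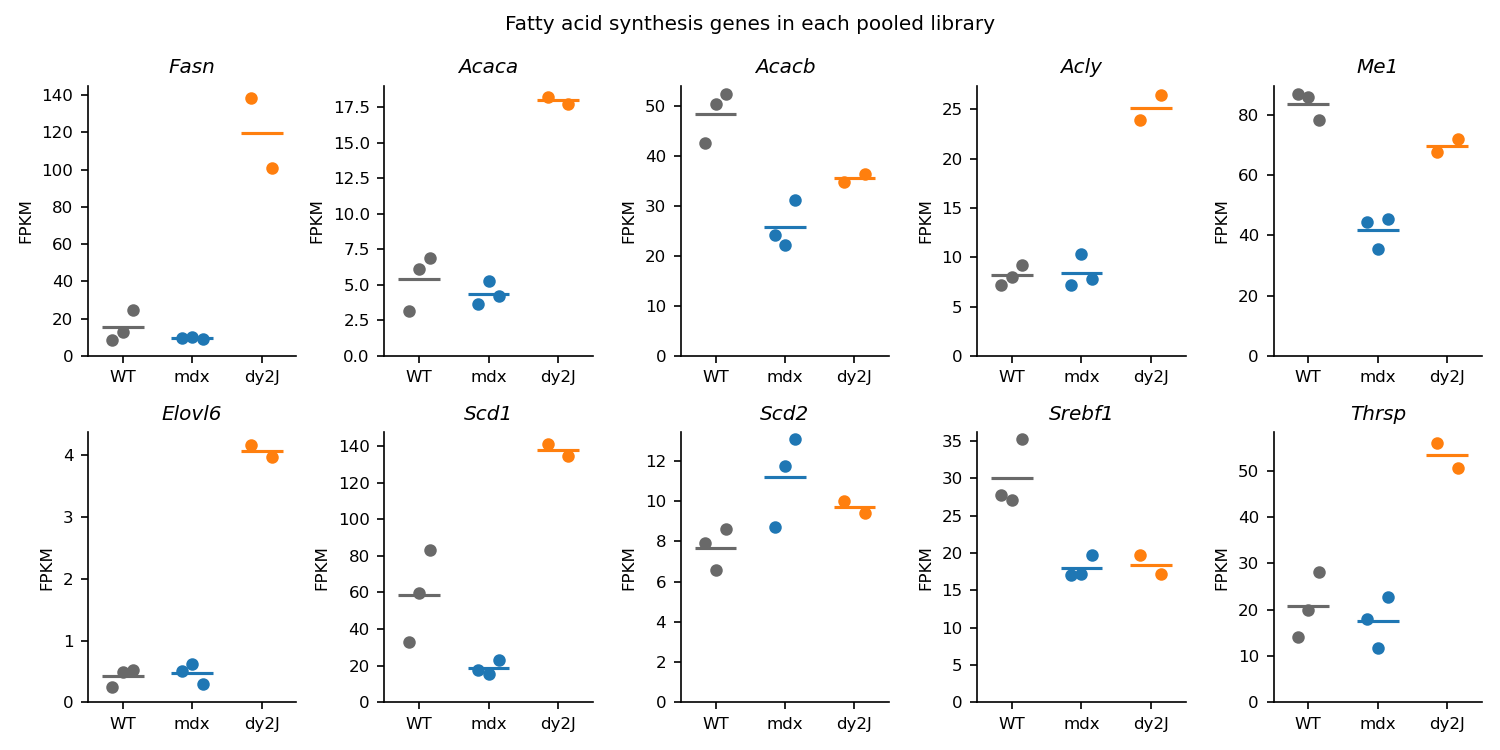
FPKM of each fatty acid synthesis gene (vertical axes, linear, starting at 0 and scaled per gene) in the 3 WT, 3 mdx and 2 dy2J libraries, 1 point per pooled library, with a bar at the group mean. In Fasn, Acaca, Acly, Elovl6, Scd1 and Thrsp the 2 dy2J libraries sit above all others, whereas Acacb, Me1 and Srebf1 are highest in WT.

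The carboxylase genes went separate ways. Acaca (ENSMUSG00000020532, chromosome 11, 84129672 to 84401651), whose enzyme makes malonyl-CoA for synthesis in the cytosol, was listed at 3.18, 6.15 and 6.92 FPKM in WT, 3.62, 5.27 and 4.19 in mdx and 18.2 and 17.7 in dy2J. Acacb (ENSMUSG00000042010, chromosome 5, 114146535 to 114250761), the mitochondrial form, was listed at 42.7, 50.4 and 52.5 in WT, 24.2, 22.2 and 31.2 in mdx and 34.8 and 36.4 in dy2J. Acaca was high in dy2J alone, with mdx inside the range of WT (below WT 2 and WT 3 and above WT 1), and Acacb was lower in every diseased pool than in any WT pool. The differences from WT were 1.62 ± 0.25 for Acaca and -0.43 ± 0.16 for Acacb in dy2J. In mdx they were -0.22 ± 0.23 and -0.89 ± 0.14. The ratio of Acacb to Acaca was 9.73 ± 3.19 in WT, 6.11 ± 1.70 in mdx and 1.98 ± 0.104 in dy2J, so the muscle-type carboxylase remained the higher of the pair in every library.

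The genes of substrate supply split in the same manner. Acly (ENSMUSG00000020917, chromosome 11, 100476353 to 100528000) stood at 7.21, 7.99 and 9.25 FPKM in WT, 7.15, 10.4 and 7.81 in mdx and 23.9 and 26.4 in dy2J. The dy2J pools were apart from the rest and the mdx pools overlapped WT, with differences from WT of 1.52 ± 0.16 and 0.04 ± 0.14. Me1 (ENSMUSG00000032418, chromosome 9, 86581371 to 86695953), the cytosolic malic enzyme, had the highest mean of the 10 genes in WT on this per-length scale, at 86.9, 85.7 and 78.3 FPKM, although Scd1 exceeded it in WT 3. It was listed at 44.3, 35.6 and 45.5 in mdx and 67.6 and 71.9 in dy2J, without overlap between groups. Its difference from WT was -0.99 ± 0.11 in mdx and -0.26 ± 0.13 in dy2J.

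Elovl6 (ENSMUSG00000041220, chromosome 3, 129532386 to 129638495), the elongase of palmitate, was the least abundant, at 0.244, 0.494 and 0.529 FPKM in WT and 0.512, 0.628 and 0.296 in mdx. In dy2J it was listed at 4.17 and 3.98, a ratio of means of 9.64 to WT, the largest of the 10. Its log2 difference of 1.84 ± 0.15 understates this, since the added 1 FPKM exceeds the WT level. With 0.1 FPKM added in its place the difference was 3.05. In mdx the difference was 0.06 ± 0.14, and the pools overlapped WT.

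The regulators did not move together. Srebf1 (ENSMUSG00000020538, chromosome 11, 60199089 to 60222581) was lower in all diseased pools, at 17.0, 17.3 and 19.7 FPKM in mdx and 19.7 and 17.2 in dy2J against 27.8, 27.1 and 35.2 in WT. The differences were -0.70 ± 0.12 in mdx and -0.67 ± 0.14 in dy2J, and the models overlapped. In dy2J, Srebf1 was thus below WT in the same libraries in which Fasn, Acaca, Acly, Elovl6 and Scd1 were above it. A gene-level FPKM does not separate the transcripts of Srebf1 that start at its 3 RefSeq start sites. Thrsp (ENSMUSG00000035686, chromosome 7, 97412938 to 97417730) was listed at 14.0, 19.9 and 28.2 FPKM in WT, 18.1, 11.8 and 22.8 in mdx and 56.1 and 50.6 in dy2J. It was high in dy2J (1.37 ± 0.30 against WT), and mdx overlapped WT (-0.22 ± 0.27).

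**Figure D2:**
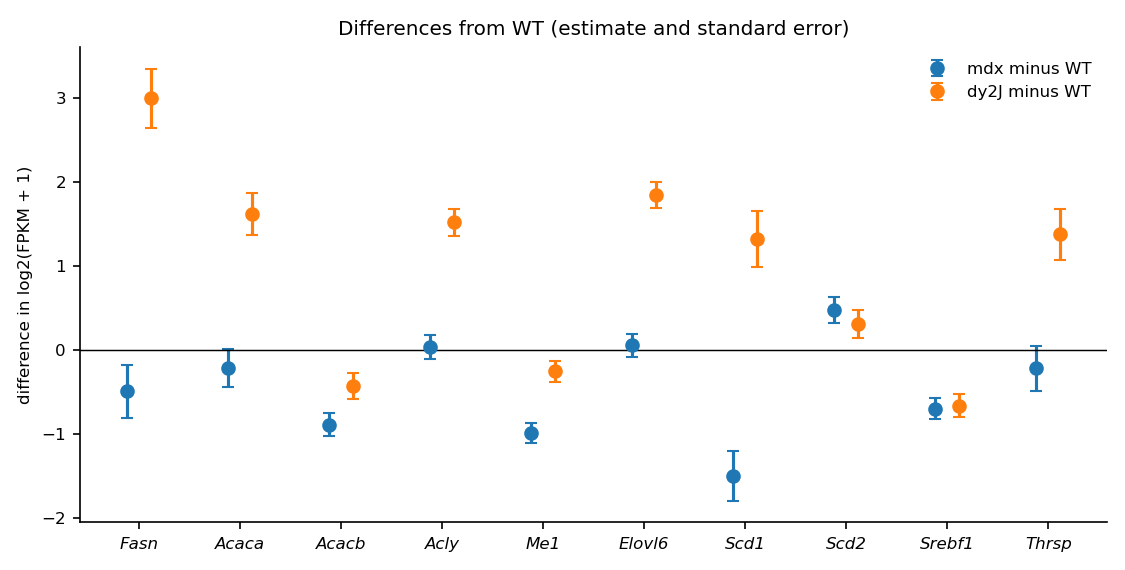
Difference from WT in log2(FPKM + 1) for each gene (vertical axis), in mdx (blue) and dy2J (orange); points are estimates of the linear model over all 8 libraries and bars are standard errors. In dy2J, Fasn is highest at 2.99 and Srebf1 lowest at -0.67, and in mdx Scd1 is lowest at -1.50.

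Counted over the 10 genes, 1 was called higher and 4 lower in mdx than in WT, against 23.9% and 12.8% of all tested genes, or 36.7% in either direction (limma, Benjamini-Hochberg adjusted over all genes, threshold 0.05). In dy2J against WT 6 were called higher and 1 lower, against 11.5% and 9.04%, or 20.6%. In dy2J against mdx 7 were called higher and 0 lower, against 2.77% and 3.66%, or 6.43%. Groups did not overlap for 5 genes in mdx against WT (1 higher, 4 lower), beside 50.4% of all tested genes (31.4% higher, 19.0% lower). They did not overlap for 10 in dy2J against WT (7 higher, 3 lower), beside 60.8% (31.2% and 29.6%). In dy2J against mdx this held for 8 (all higher), beside 41.9% (13.9% and 28.1%). The choice of genes used these comparisons, which also share the WT pools, so nothing is read from the counts. The median difference of the 10 genes was -0.36 in mdx and 1.35 in dy2J, beside 0.07 and 0.01 for all tested genes. Without WT 1 the dy2J median was 1.05 and without WT 3 1.61, and that of mdx was -0.63 and -0.07.

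The order of the genes by level differed between genotypes. In WT the highest mean levels were those of Me1, Scd1 and Acacb at 83.6, 58.5 and 48.5 FPKM. Scd1 overlapped both of the others and was above Me1 in WT 3. In mdx the order was Me1, Acacb and Scd1 at 41.8, 25.9 and 18.9, where Me1 stood apart and Scd1 overlapped Acacb and Srebf1 (18.0). In dy2J it was Scd1, Fasn and Me1 at 138, 120 and 69.7, and Scd1 and Fasn overlapped while Me1 stood apart. Of the summed FPKM of the 10 genes, Fasn made up 3.62% to 7.61% among the WT pools, 5.04% to 7.36% among the mdx pools and 26.9% and 21.5% in dy2J. That sum was between 231 and 327 in WT, between 141 and 177 in mdx, and 514 and 469 in dy2J.

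The genes were not chosen for their spread among the WT pools. Fasn varied by a coefficient of variation of 55.9%, Scd1 by 43.0%, Elovl6 by 36.7%, Acaca by 36.4% and Thrsp by 34.3%, whereas Me1 varied by 5.58%, Acacb by 10.7%, Acly by 12.6%, Scd2 by 13.4% and Srebf1 by 15.0%. The median over 7017 tested genes with a WT mean of at least 5 FPKM was 7.74%. Elovl6, with a WT mean of 0.423 FPKM, lies below that limit, so its value has no like reference here. WT 3 was the highest WT pool for 9 of the 10 genes, all but Me1, and WT 1 the lowest for 7, beside 32.3% and 38.7% of all tested genes. Adipocyte markers followed the same order, with WT 3 highest for 14 of 14 and WT 1 lowest for 13 of 14. Adipoq, the adipocyte hormone adiponectin, stood at 15.8, 22.5 and 45.4 FPKM in WT 1, 2 and 3, and Plin1, which coats the fat droplet of adipocytes, at 2.94, 5.06 and 11.5. What part fat cells play in the spread of the synthesis genes was not tested.

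**Figure D3:**
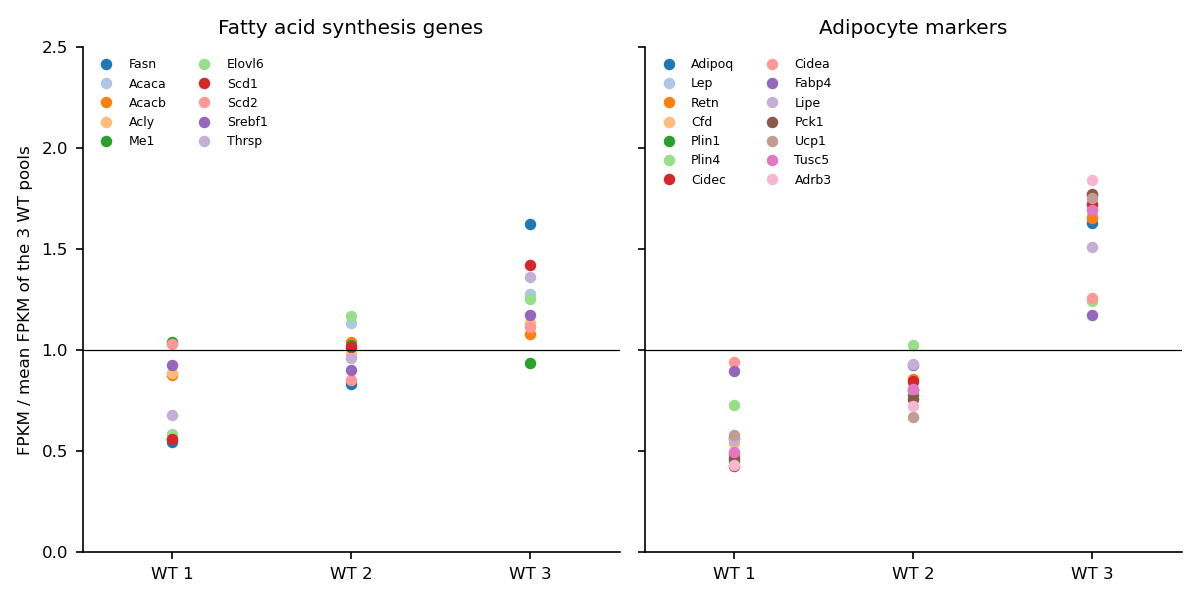
FPKM of each gene in the 3 WT pools divided by its mean over those pools (vertical axis), for the 10 fatty acid synthesis genes (left) and 14 adipocyte markers (right), 1 colour per gene. WT 3 is highest for 9 of 10 and for 14 of 14 genes.

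Some adipocyte markers were also higher in dy2J. The summed FPKM of the list was between 614 and 1163 in WT, between 866 and 987 in mdx, and 1741 and 1400 in dy2J. In dy2J against WT 7 of 14 were called higher and 0 lower, or 50% beside 20.6% of all tested genes, with a list median of 1.22. That count includes Ucp1, which reached the expression minimum through the dy2J libraries alone. Without it 6 of 13 were called and the median was 1.20. The count was 2 (Ucp1 and Cidea) without dy2J 1 or dy2J 2, 4 without WT 2 and 11 without WT 3. In mdx 0 of 14 were called by limma (0 at an unadjusted p below 0.05), beside 36.7% of all tested genes, and the list median was 0.04. None of the markers was at 0 in any library. Cidea, a droplet protein of brown fat, was listed between 0.975 and 1.53 FPKM in WT and at 14.9 and 5.38 in dy2J, and rose in dy2J by 2.19 ± 0.32 (limma adjusted p = 0.00356). Ucp1, the uncoupling protein of brown and beige fat, was listed at 0.0218 to 0.0657 in WT and 0.0430 to 0.0942 in mdx but at 27.7 and 7.40 in dy2J. Retn, which encodes the hormone resistin, stood at 6.51 to 22.0 FPKM in WT and 46.7 and 45.6 in dy2J (1.87 ± 0.37, limma adjusted p = 0.0106, but 0.0822 without dy2J 1 and 0.0557 without dy2J 2). Adipoq stood at 65.9 and 57.0 in dy2J (1.24, limma adjusted p = 0.0433). Not all markers were higher: Lep, which encodes leptin, stood at 0.804 to 2.73 FPKM in WT and 0.834 and 0.957 in dy2J, and Tusc5 at 1.49 to 5.10 and at 2.99 and 2.44. Plin4, a coat protein of fat droplets, was lower in both dy2J pools than in any WT pool, with a mean and SD of 48.1 ± 2.67 FPKM over 2 pools against 58.1 to 99.2 in WT, but was not called (-0.68, limma adjusted p = 0.0539).

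The 10 genes were also set against the summed adipocyte markers. That sum was higher in both dy2J pools than in any WT pool, so this scaling lowers the ratio of dy2J to WT for any gene. Cfd, which encodes adipsin, and Fabp4, a fatty acid carrier, made up 77.2% to 84.4% of that sum in every library, so the scaling rests mainly on them. Fasn amounted to 13.6, 17.4 and 21.4 FPKM per 1000 FPKM of summed markers in WT, 11.1, 10.5 and 9.62 in mdx and 79.5 and 72.0 in dy2J, a ratio of 4.33 between the means of dy2J and WT. Elovl6 had a ratio of 5.15, Acaca 1.78, Acly 1.60 and Thrsp 1.38, and in these 5 genes both dy2J pools remained above all WT pools. Scd1 did not, with 53.5, 81.1 and 71.4 in WT and 81.0 and 96.1 in dy2J. It was 20.5, 15.8 and 25.2 in mdx, below every WT pool. The other 4 genes were lower per marker FPKM in dy2J than in any WT pool. The values depended on the markers used. Each of the 14 markers was also used in turn as the denominator. Both dy2J pools exceeded all WT pools with 12 markers for Fasn and Elovl6, 7 for Acaca and 5 each for Acly, Scd1 and Thrsp. They were below all WT pools with 4 each for Scd1 and Thrsp, 2 for Acly and 1 each for Fasn, Elovl6 and Acaca. Leaving out Ucp1, the ratio of dy2J to WT ran from 1.14 (per Cidea) to 14.1 (per Lep) for Fasn. It ran from 1.43 (per Cidea) to 16.4 (per Plin4) for Elovl6 and from 0.497 (per Cidea) to 5.63 (per Plin4) for Acaca. For Scd1 it ran from 0.358 (per Cidea) to 4.05 (per Lep). For Thrsp and Acly it ran from 0.386 and 0.474 (per Cidea) to 4.34 and 4.97 (per Plin4). These scalings were chosen after seeing the data, and what part fat cells play in the dy2J levels was not tested.

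**Figure D4:**
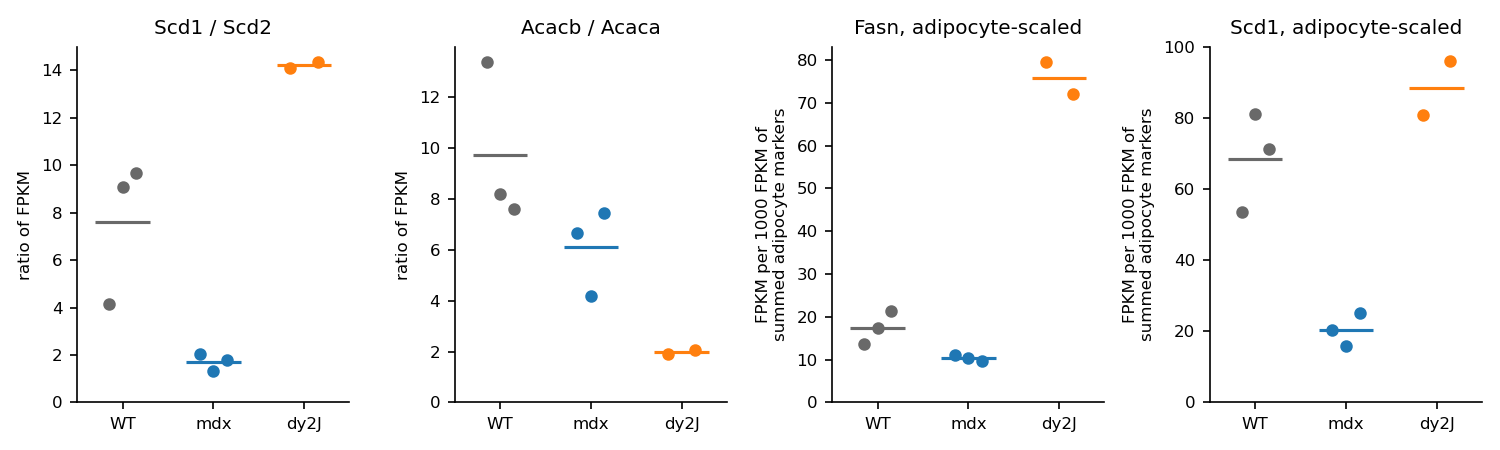
Ratios per pooled library (points) with group means (bars), on linear axes from 0: Scd1 to Scd2, Acacb to Acaca, and Fasn and Scd1 per 1000 FPKM of summed adipocyte markers. The 2 dy2J libraries are highest for Scd1 to Scd2 (14.1 and 14.3) and for scaled Fasn (79.5 and 72.0) and lowest for Acacb to Acaca (1.91 and 2.06). The scaled values rest mainly on Cfd and Fabp4.

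Markers of other cell types differed between the groups as well, and their part in these results was not tested. The shares of these short lists that were called stand beside 36.7% of all tested genes in mdx and 20.6% in dy2J. Macrophage markers, 10 of 10 of them called higher in mdx and 7 in dy2J (100% and 70%), summed to 74.1 to 93.7 FPKM across the WT pools, 421 to 882 across the mdx pools and 264 and 216 in dy2J. Markers of myelinating Schwann cells, which make lipid for myelin, summed to between 50.5 and 54.2 in WT, between 39.6 and 48.1 in mdx, and to 79.4 and 71.1 in dy2J. Of the 5 that were tested, 3 were called lower in mdx, and 2 were called higher and 1 lower in dy2J (60% called in each). Fibro-adipogenic progenitor markers (3 of 6 called higher in each model, or 50%) summed to 644 to 654, 686 to 745 and 988 and 818. Endothelial markers (4 of 5 called lower in mdx and 1 of 5 in dy2J, or 80% and 20%) summed to 83.4 to 102, 60.2 to 68.5 and 68.6 and 71.7. Muscle fibre markers summed to 37096 to 43151, 23077 to 34341 and 22651 and 23338, with 4 of 8 called lower in mdx and 4 lower and 1 higher in dy2J (50% and 62.5%). Not all of these calls were stable. In dy2J those of Mbp, Ncmap, Cdh5, Emr1, Cd68, Pvalb, Actn3 and Ckm were lost without dy2J 1 and without dy2J 2. Those of Mbp and Ckm in dy2J, and of Ckm in mdx, were also lost when any 1 WT pool was left out. The dy2J calls of Dpt, Ly6a and Actn2 held whichever library was left out. No marker of these lists was at 0 in any library.

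Further enzymes of acetyl-CoA and NADPH supply, elongation and desaturation were read from a list of 30 genes, of which 26 were tested. In dy2J 8 rose and 3 fell, or 42.3% called beside 20.6% of all tested genes, with a median of 0.29 beside 0.01 for all tested genes. The largest rises were those of Slc25a1, Tkt and Idh2, by 2.16, 1.84 and 1.16 (limma adjusted p = 0.00215, 0.00295 and 0.00101), and all of these calls held whichever library was left out. Slc25a1, the carrier that exports citrate from mitochondria and so feeds Acly, stood at 3.60, 4.72 and 8.44 FPKM in WT, 5.75, 7.66 and 5.01 in mdx and 29.4 and 24.9 in dy2J. Tkt, the transketolase of the pentose phosphate pathway, was listed between 5.94 and 10.7 in WT, between 8.41 and 14.0 in mdx and at 31.6 and 27.4 in dy2J. Idh2, the mitochondrial NADP-dependent isocitrate dehydrogenase, was listed at 49.1 to 60.8, 48.1 to 58.1 and 124 and 125. The desaturase-like Fads6, the elongation enzyme Ptpla (now Hacd1) and the mitochondrial malic enzyme Me3 fell by 0.54, by 0.50 and by 0.59 (limma adjusted p = 0.0161, 0.0486 and 0.0468), and none of these falls was called without dy2J 1 or without dy2J 2. The count of calls was 4 without dy2J 1, 5 without dy2J 2 and 7 without WT 1.

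In mdx 8 of the 26 rose and 5 fell, or 50% called beside 36.7%, with a median of 0.16 beside 0.07 for all tested genes. Me2, a mitochondrial malic enzyme, rose from 1.80 to 2.16 FPKM in WT to 4.11 to 6.65 (1.13, limma adjusted p = 0.00108). Elovl1, an elongase of very long chains, reached 16.8 to 23.4 FPKM from 8.00 to 8.92 (1.10, limma adjusted p = 0.000638). Pgd, an NADPH-producing enzyme of the pentose phosphate pathway, reached 14.0 to 19.6 from 6.91 to 7.99 (0.96, limma adjusted p = 0.00139). Elovl1 and Pgd were also called higher in dy2J than in WT, by 0.74 and 1.15 (limma adjusted p = 0.0103 and 0.00257). Me2 was not called there (0.46). In mdx, Mdh1, the cytosolic malate dehydrogenase, Fads6 and Me3 fell by 0.75, by 0.72 and by 0.58 (limma adjusted p = 0.00621, 0.00152 and 0.0212). The call of Me3 was lost without WT 2 (limma adjusted p = 0.0733). Under quantile normalization the split was 6 higher and 6 lower. Between the models, 4 were higher in dy2J and 0 lower, or 15.4% beside 6.43%, led by Slc25a1 (1.99, limma adjusted p = 0.00619), Tkt (1.43, limma adjusted p = 0.0170) and Idh2 (1.24, limma adjusted p = 0.00143). Of these, the call of Idh2 held whichever library was left out, and 1 call was left without dy2J 1 and 2 without dy2J 2.

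Of 22 genes of triglyceride assembly 18 were tested, and Lpin2 was listed at 0 in all libraries. In dy2J 3 rose and 4 fell, or 38.9% called beside 20.6% of all tested genes (median 0.04). Agpat2, the acyltransferase needed for fat cells, was listed at 5.82 to 9.81 FPKM across the WT pools, 6.21 to 10.3 across the mdx pools and 29.0 and 21.2 in dy2J (1.67, limma adjusted p = 0.00434, and 0.052 without dy2J 1). Lpin1, the phosphatidate phosphatase of muscle, fell from 93.2 to 100.2 FPKM in WT to 44.0 and 49.5 in dy2J and 49.2 to 66.3 in mdx, by 1.03 and by 0.81 (limma adjusted p = 0.00290 and 0.00210). Acsl3, a long-chain acyl-CoA synthetase, fell in dy2J by 1.17 and in mdx by 0.79 (limma adjusted p = 0.000624 and 0.000876). Both calls in dy2J held whichever library was left out. Dgat1, which makes triglyceride, rose by 0.91 and Acsl5 by 0.68, and Gpd1 fell by 0.72 (limma adjusted p = 0.0139, 0.0207 and 0.0243), and none of these was called without dy2J 1 or without dy2J 2. The count in dy2J was 2 without dy2J 1 and 3 without dy2J 2.

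In mdx 2 rose and 6 fell, or 44.4% called beside 36.7% of all tested genes (median -0.03). Dgat2, the other enzyme of the last step, stood at 16.5 to 30.9 FPKM across the WT pools, 9.13 to 13.4 across the mdx pools and 30.0 and 25.2 in dy2J, and fell in mdx by 0.88 (limma adjusted p = 0.0144). The long-chain acyl-CoA synthetase Acsl1 fell by 0.88 and Acsl5 rose by 0.80 (limma adjusted p = 0.00343 and 0.00351). Agpat4 rose by 0.66 (limma adjusted p = 0.0357), a call lost under 7 alternatives, with p up to 0.107. Between the models 2 of 18 were called, or 11.1% beside 6.43%. Agpat2 and Dgat2 were higher in dy2J, by 1.61 and 1.18 (limma adjusted p = 0.0109 and 0.0294), and neither was called without dy2J 1.

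Regulators of lipogenic genes, a list of 30 with 29 tested, showed no common direction. In mdx 3 rose and 6 fell, and in dy2J 5 rose and 4 fell, or 31.0% called in each beside 36.7% and 20.6% of all tested genes, with medians of -0.02 in each. Srebf2, the SREBP of cholesterol synthesis, stood at 2.93 to 3.48 FPKM across the WT pools, 5.75 to 7.38 across the mdx pools and 5.57 and 4.41 in dy2J. It rose in mdx by 0.83 (limma adjusted p = 0.00161) and in dy2J by 0.54 (limma adjusted p = 0.0292, but 0.231 without dy2J 1). Mlxipl, the carbohydrate-responsive factor ChREBP, stood between 31.8 and 33.1 in WT, between 18.6 and 27.0 in mdx and at 29.8 and 33.0 in dy2J and fell in mdx by 0.56 (limma adjusted p = 0.0121). Cebpa, a factor of fat cell differentiation, rose in mdx and dy2J by 1.03 and 1.17 (limma adjusted p = 0.0248 and 0.0376), and neither call held without WT 1 (0.0688 and 0.0848) or without WT 2 (0.063 and 0.0855). Nfya, a subunit of NF-Y, rose in mdx by 0.56 and in dy2J by 0.43 (limma adjusted p = 0.00402 and 0.0326). Nfyc, another subunit, fell in dy2J by 0.42 (limma adjusted p = 0.0353). It was also lower in every mdx pool than in any WT pool, but was not called there (-0.20). Prkaa2, the muscle catalytic subunit of the kinase AMPK, which inhibits acetyl-CoA carboxylase, fell by 0.81 in mdx and by 0.78 in dy2J (limma adjusted p = 0.00415 and 0.0149), and Rxrg, a retinoid X receptor, by 0.72 and by 0.75 (0.00329 and 0.00944). Without dy2J 1 their p in dy2J was 0.144 and 0.103. Pnpla3, a lipid-droplet protein, rose in dy2J by 0.88 (limma adjusted p = 0.0352). The dy2J calls of Cebpa, Nfyc, Pnpla3 and Srebf2 were lost without dy2J 1, without dy2J 2 and without WT 1. The count in dy2J was 0 without dy2J 1, 2 without dy2J 2, and 2, 3 and 4 without WT 1, WT 2 and WT 3. Between the models limma called 0 of the 29 (3 at an unadjusted p below 0.05), and 3 higher in dy2J after rescaling by the median ratio or quantile normalization.

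Genes of cholesterol synthesis and uptake are targets of the sister factor SREBP-2. The share called was below that of all tested genes in mdx and near it in dy2J. Of 21 tested among 23 listed, 4 rose and 1 fell in mdx and 2 rose and 3 fell in dy2J, or 23.8% called in each beside 36.7% and 20.6% of all tested genes. Ebp rose in mdx from 9.17 to 12.4 FPKM to 15.9 to 23.2 (0.80, limma adjusted p = 0.00497), and Sc5d fell in mdx by 0.60 and in dy2J by 0.62 (limma adjusted p = 0.00396 and 0.0111, the latter 0.118 without dy2J 1). The call in mdx of Msmo1 (0.61, limma adjusted p = 0.0130) was lost after quantile normalization, where 1 gene was called higher and 2 lower. Sqle, counted among the rises in mdx (0.46, limma adjusted p = 0.0446), reached the expression minimum through the mdx libraries alone. Its call was lost under 11 of 13 alternatives, among them median-ratio rescaling, quantile normalization and leaving out any 1 WT pool. In dy2J, Ebp and Acat2 rose by 0.61 and 0.54 (limma adjusted p = 0.0392 and 0.0202) and Fdft1 fell by 0.50 and Pmvk by 0.35 (limma adjusted p = 0.0338 and 0.0397). All 4 of these calls were lost without dy2J 1 and without dy2J 2. The count in dy2J was 0 without dy2J 1, 1 without dy2J 2 and 3, 1 and 2 without WT 1, WT 2 and WT 3. Mvd was listed at 0 in WT 1.

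**Figure D5:**
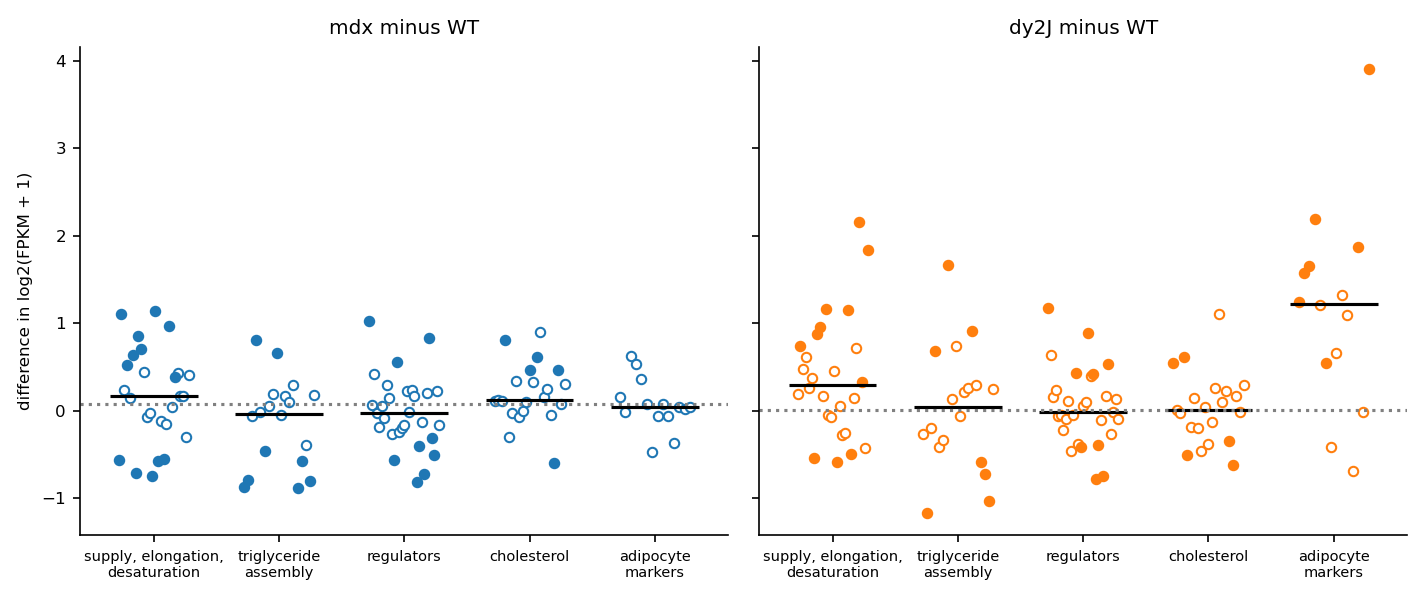
Difference from WT in log2(FPKM + 1) (vertical axis) for the tested genes of 5 lists, in mdx (left) and dy2J (right); 1 point per gene, filled where the limma adjusted p is below 0.05, with a bar at the list median and a dotted line at the median of all tested genes. The median of the adipocyte markers is 1.22 in dy2J and 0.04 in mdx.

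Genes whose level was most like that of Fasn over the 8 libraries were Rbp4 (Pearson r of log2(FPKM + 1) = 0.985), Acaca (0.978), Vgll2 (0.976), Tmem53 (0.973) and Cdo1 (0.972), of 11527 named genes without a value of 0. Elovl6 ranked 15, Acly 29, Thrsp 52 and Scd1 130 in that order, and Acacb, Me1, Scd2 and Srebf1 followed far behind, with r from -0.17 to 0.32. Rbp4, a retinol carrier, stood at 1.60, 2.75 and 3.99 FPKM in WT, 1.38, 1.55 and 1.70 in mdx and 12.4 and 8.12 in dy2J. Most like Scd1 were Wfs1 (0.987), Adck3 (0.983), Gpc3 (0.968), Pla2g12a (0.968) and Atp1b1 (0.966), while Fasn ranked 109 with r = 0.88. Adck3, a kinase-like protein of coenzyme Q synthesis, stood at 293, 416 and 418 FPKM in WT, 197, 168 and 239 in mdx and 528 and 522 in dy2J. The libraries form 3 genotype groups, so these correlations mainly order genes by their group means and carry no p.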

How the data were processed

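Pooled RNA of quadriceps muscle was sequenced as 8 libraries, and groups follow the sample titles. Per the file headers, what the authors deposited is FPKM for each gene in each library. Build GRCm38, TopHat2 2.0.13 and Cufflinks 2.2.1 with Cuffdiff and Cuffnorm are named in the submitters' notes, as are Trim Galore 0.3.7 and bcl2fastq 2.15.0.4. Settings, use of strand and scaling between libraries are not given in the sources used here, so overlapping and antisense genes are uncertain. Low values of 6644 genes with 1 transcript were searched for steps of whole reads. At the best of many steps tried, 25.9% to 30.5% lay within 0.1 of a whole multiple. Chance gives 20% for 1 fixed step and more for the best of many. Reads were therefore not recovered, depth is unknown and no counting interval is given.

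Values were analysed as log2(FPKM + 1) with limma 3.58.1 in R 4.3.3, over the genes that reached 1 FPKM in 2 or more libraries. All 8 libraries entered 1 model of genotype, which leaves 5 residual degrees of freedom. Tests were moderated with a mean-variance trend and two-sided, with Benjamini-Hochberg adjustment over all tested genes per comparison and a threshold of 0.05. An exact permutation test of 1 gene cannot go below p = 0.1 here. The fit was tested on simulated data. No set test was run, and lists are given by counts and medians.

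Members and lists were chosen with earlier results of these data known. Named are the 10 genes, Dmd, Lama2, up to 3 called genes per list, direction and comparison, adipocyte markers, and the 5 genes most like Fasn and Scd1. A gene named by this rule is not reported here. Ckm, Tnnt3, Scd3, Scd4, Lpin2 and Mvd were named after their values were seen. Alternatives were a pseudocount of 0.1, no expression minimum, rescaling by the median ratio, quantile normalization, a replicate block and leaving out each library. Figures used Python 3.11.15 and matplotlib 3.10.9.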

Additional observations from a re-analysis of the deposited data

How the results depend on the processing

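Over 13 alternatives, the 1638 single-gene differences (the 10 genes and the named list genes) gave 0 reversed calls. Loss of a call was scored only for the named list genes and not for the 10 genes. It occurred for 208 values, among them values from fits that left 1 dy2J pool. Of the 10 genes, 4 values of Elovl6 moved by more than the spread between pools. Differences of the 10 genes from WT kept their sign except those of Acly, Elovl6 and Thrsp in mdx, whose pools overlap WT, and between the models that of Srebf1. Quantile normalization moved the median of all genes in mdx against WT from 0.07 to -0.07.

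Without an expression minimum, which adds many unexpressed genes to the test, dy2J against mdx had 510 calls against 825. In dy2J against WT the calls then included 3 regulators, 2 cholesterol genes and 3 adipocyte markers. Lists whose counts changed less are left out here. In dy2J against mdx the calls included 2 supply and elongation enzymes, 1 triglyceride gene and 1 adipocyte marker. Median-ratio rescaling gave 3 regulators in dy2J against mdx. Quantile normalization gave 3 cholesterol genes and 1 adipocyte marker in mdx against WT, and 7 supply and elongation enzymes, 3 regulators and 2 cholesterol genes in dy2J against mdx. The cause was not tested.

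Deviations from the group mean correlated weakly between same-numbered pools (r = 0.0448 to 0.0847 between WT and mdx, -0.146 to 0.0506 with dy2J). Between WT and mdx, pools of different number gave r from -0.116 to 0.0600. WT 1 and WT 2 correlated best with the mdx pool of their own number, and WT 3 with mdx 2. The deviations of the 2 dy2J pools are equal and opposite, so their values mirror each other. Whether same-numbered pools share a batch cannot be told from these values. With the replicate block, calls were 4201 in mdx against WT, 1668 in dy2J against WT and 509 in dy2J against mdx. The block gave 1 adipocyte marker in mdx, 3 regulators and 2 cholesterol genes in dy2J against WT, and 1 regulator in dy2J against mdx.

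Leaving out 1 library gave 486 to 3306 calls in dy2J against WT and 144 to 1206 in dy2J against mdx, both lowest without dy2J 1. A lone dy2J pool is then assumed to vary like the other groups. In dy2J against WT the ranges were 4 to 15 supply and elongation enzymes, 2 to 10 triglyceride genes, 0 to 11 regulators, 0 to 7 cholesterol genes and 2 to 11 adipocyte markers. In dy2J against mdx they were 1 to 5, 0 to 4, 0 to 1, 0 to 1 and 1 to 6. In mdx against WT adipocyte markers ranged from 0 to 1. The median of the 10 genes ranged from -0.626 to -0.0693 in mdx and from 1.05 to 1.61 in dy2J. With 2 dy2J pools and unknown depth, small differences of low genes could not be resolved.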
